A study of Mus musculus with 8 samples.

Results

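Sarcolipin (*Sln*), phospholamban (*Pln*) and the SERCA pump genes *Atp2a1*, *Atp2a2* and *Atp2a3* were examined in skeletal muscle of mice lacking *Grsf1*. Every non-control probe whose listed RefSeq transcript belongs to 1 of these 5 genes was taken, which gave 7 of the 56605 probes on the array, which stand for 5 of the 22911 genes that could be named. *Sln*, *Pln*, *Atp2a1* and *Atp2a3* have 1 probe each, and *Atp2a2* has 3. *Sln* was chosen by its difference between Grsf1cKO and WT mice on these arrays, so its values are a description and it was not tested. The other 4 genes were chosen as its known partners. The question was whether higher *Sln* came with a change in the pumps or in *Pln*.

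The muscle came from 3 Grsf1cKO and 3 WT mice, all male and 17 months old. Grsf1cKO mice carried *Grsf1* with floxed exons IV and V and the Myf5Cre driver, which acts in muscle precursors. This floxed allele derives from Grsf1tm1a and, after a cross with FLPo mice, no longer holds LacZ or Neo. The sources used here do not say whether WT mice carried Cre or a floxed allele. The sample labels name the vastus intermedius and the paper names the rectus femoris, both muscles of the quadriceps. Whole muscle was used, so fewer cells of a type and less RNA per cell cannot be told apart.

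SERCA pumps move calcium from the cytosol back into the sarcoplasmic reticulum (SR), which lets a muscle fiber relax and refills its calcium store. *Atp2a1* encodes SERCA1, the pump of fast fibers, *Atp2a2* encodes SERCA2, the pump of slow fibers, heart and many other cells, and *Atp2a3* encodes SERCA3, known mainly from nonmuscle cells. Sarcolipin and phospholamban are small membrane proteins that bind the pump and lower its calcium transport. Phospholamban is best known from heart and slow muscle, where phosphorylation relieves its inhibition. Sarcolipin is known from the atria and from oxidative, immature and diseased skeletal muscle, and it lets the pump use ATP with less calcium moved.

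Cy3-labeled RNA was measured on 8 Agilent arrays of the 1-color kind, because mouse 1 of each genotype had a repeat array. Values are log2 of the background-corrected signal after quantile normalization, and the arrays of a mouse were averaged, so that the mouse was the replicate. Between 66.3% and 88.9% of spots were well above background on each array, the highest share being on the repeat array of Grsf1cKO 1. That array was unlike the others at low signal. Its 25th percentile of processed signal was 55.5, against 9.68 to 15.7 on the other arrays. It is averaged into the values of Grsf1cKO 1. *Grsf1* followed the labels, at 12.02 to 12.15 in Grsf1cKO and 14.25 to 14.30 in WT mice on the log2 scale. All 8 genes of a list of skeletal muscle fiber markers were well above background in every mouse. Grsf1cKO 3 stood apart from the other mice. Its signal was over 4-fold from the median of the other 5 mice for 94 of 34909 probes, 78 of them higher, against 22 to 49 probes in each of the others. The members are therefore given with and without it, as are other genes and lists where this is stated. Values without it are the mean of Grsf1cKO 1 and 2 minus that of the WT mice.

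The log2 signal of *Sln* was 12.10 in Grsf1cKO 1, 12.67 in Grsf1cKO 2 and 13.23 in Grsf1cKO 3. In WT 1, WT 2 and WT 3 it was 11.30, 11.79 and 11.59. A gap of 0.31 separated the lowest of the Grsf1cKO values from the highest of the WT values, without overlap. The WT mice spanned 0.48 and the Grsf1cKO mice 1.13, with Grsf1cKO 3 the highest of all. The difference between the means was 1.11, a 2.15-fold higher signal in Grsf1cKO muscle, and the SD was 0.57 in Grsf1cKO and 0.24 in WT mice (n = 3 each). Of the probes well above background in all mice, 99.8% had a smaller absolute difference, which describes how *Sln* came to be chosen. Non-overlap with Grsf1cKO higher was found for 3.08% of all probes with a value in every mouse.

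The level of *Sln* differed more between mice of a genotype than that of most RNAs. Its pooled SD within genotypes was larger than that of 91.9% of probes well above background in all mice. The repeat array differed from the first by 0.078 in WT 1 and by -0.0048 in Grsf1cKO 1. The other mice had 1 array each, so the repeatability of their values was not measured. Without Grsf1cKO 3 the difference was 0.83, or 1.77-fold, and the remaining Grsf1cKO mice were still above every WT mouse. Slide 1 holds only WT arrays, among them the sole array of WT 2. On slide 2 alone, which holds all Grsf1cKO mice and 2 of the WT mice, the difference of *Sln* was 1.20. With WT 2 left out and both slides kept it was 1.22.

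**Figure D1:**
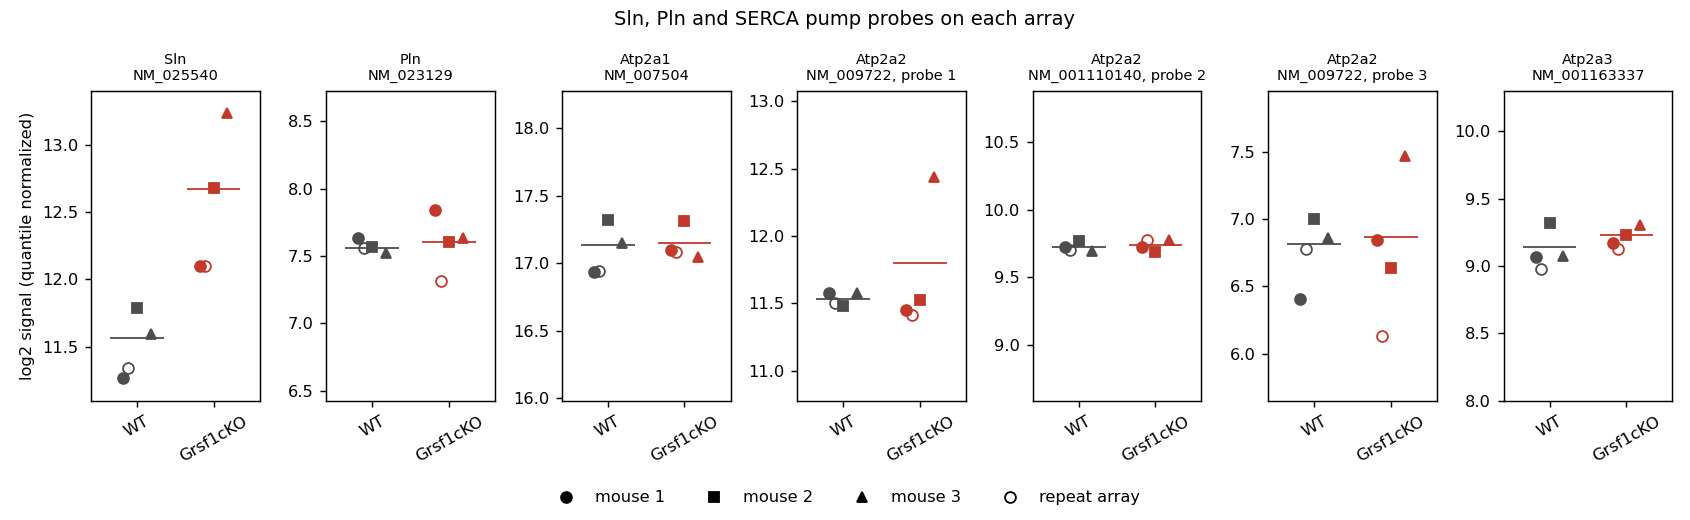
Log2 signal of each of the 7 probes on each array, by genotype. Points are arrays, with open symbols for the repeat arrays and shapes for mouse 1, 2 and 3, and lines are the means of 3 mice; every panel spans the same range of log2 signal. *Sln* is separated by genotype, while the other 6 probes overlap, and Grsf1cKO 3 is high in both NM_009722 probes of *Atp2a2*.

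*Pln*, the other small inhibitor of the pump, was nearly level across the 6 mice. Its log2 signal was 7.58, 7.61 and 7.63 in the Grsf1cKO mice 1 to 3, compared with 7.60, 7.57 and 7.52 in the WT mice 1 to 3. The genotypes overlapped, and the difference of 0.042 had a 95% interval of -0.15 to 0.23 (limma adjusted *p* = 0.997). This interval allows from 0.903-fold to 1.17-fold of the WT signal. The arrays of Grsf1cKO 1 gave 7.84 and 7.31 before they were averaged, a wider gap than that between any of the mouse means. The lower value came from the repeat array that was unlike the others at low signal. The arrays of WT 1 differed by 0.074. Without Grsf1cKO 3 the difference of *Pln* was 0.029.

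*Atp2a1*, the pump gene of fast fibers, had a log2 signal of 17.09, 17.31 and 17.04 in the Grsf1cKO mice 1 to 3. In the WT mice 1 to 3 it was 16.94, 17.32 and 17.15. The ranges lay almost on top of each other, and mouse 2 was the highest in both genotypes. The difference was 0.013 (95% interval -0.32 to 0.34, limma adjusted *p* = 0.998), which allows 0.802-fold to 1.27-fold, and without Grsf1cKO 3 it was 0.067. Grsf1cKO 3, with the highest *Sln*, had the lowest *Atp2a1* of its genotype, 0.094 below the WT mean on the log2 scale, at 0.937-fold. The repeat arrays differed from the first by 0.0064 in WT 1 and -0.018 in Grsf1cKO 1.

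*Atp2a2*, the pump gene of slow fibers, was high in 1 mouse on some of its probes. The brightest probe, listed under NM_009722, gave 11.43, 11.53 and 12.44 in the Grsf1cKO mice 1 to 3, and 11.54, 11.48 and 11.58 in the WT mice 1 to 3. The genotypes overlapped, since Grsf1cKO 1 was the lowest of the 6 mice and Grsf1cKO 3 the highest. Grsf1cKO 3 was 0.91 above the WT mean, or 1.88-fold, while the WT mice spanned 0.094. The difference between genotypes was 0.27 (95% interval -0.40 to 0.94, limma adjusted *p* = 0.996). Without Grsf1cKO 3 it was -0.052 (95% interval -0.30 to 0.20, limma adjusted *p* = 0.999), so that its sign rested on this mouse.

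The dimmest *Atp2a2* probe, also listed under NM_009722, was likewise highest in Grsf1cKO 3. It gave 6.49, 6.64 and 7.47 in the Grsf1cKO mice 1 to 3, and 6.59, 7.00 and 6.86 in the WT mice 1 to 3. The difference was 0.046 (95% interval -0.63 to 0.72) and turned to -0.25 without Grsf1cKO 3 (95% interval -0.65 to 0.14). Of the members, this probe differed most between repeat and first array, by 0.37 in WT 1 and by -0.71 in Grsf1cKO 1. The latter involves the repeat array that was unlike the others at low signal, so probe and array cannot be told apart there.

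The third *Atp2a2* probe, listed under NM_001110140, did not show the high value of Grsf1cKO 3. It gave 9.75, 9.69 and 9.78 in the Grsf1cKO mice 1 to 3, and 9.71, 9.77 and 9.69 in the WT mice 1 to 3. All 6 mice lay within 0.093 of each other, and the difference was 0.014 (95% interval -0.18 to 0.21), or -0.0062 without Grsf1cKO 3. These accessions are different transcripts of *Atp2a2*. Probe sequences were not used here, so it is unknown which transcripts each probe detects.

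*Atp2a3*, the pump gene known from nonmuscle cells, had a log2 signal of 9.15, 9.23 and 9.30 in the Grsf1cKO mice 1 to 3. In the WT mice 1 to 3 it was 9.02, 9.32 and 9.08. The highest mouse was WT 2, and the genotypes overlapped. The difference was 0.087 (95% interval -0.18 to 0.36, limma adjusted *p* = 0.996), or 0.049 without Grsf1cKO 3. It was 0.029 without WT 1 and 0.18 without WT 2.

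**Figure D2:**
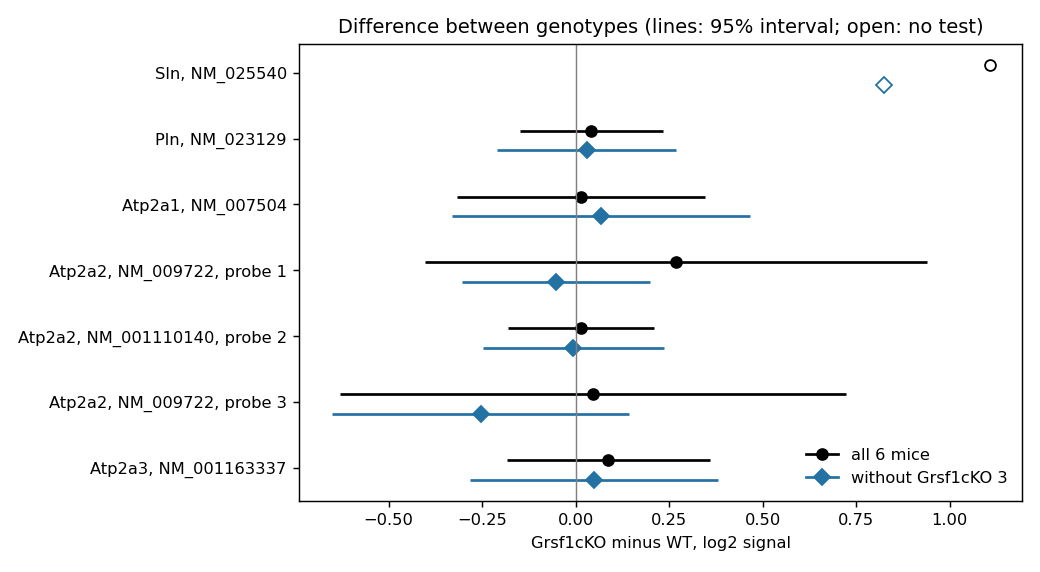
Difference in log2 signal between Grsf1cKO and WT muscle for each probe, for all 6 mice (circles) and without Grsf1cKO 3 (diamonds). Lines are 95% intervals from limma, and *Sln* is drawn open with no interval because it was not tested. The intervals of the 6 other probes include 0, and the brightest *Atp2a2* probe moves from 0.27 to -0.052 without Grsf1cKO 3.

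Side by side, no probe of *Pln* or of a pump gene differed between the genotypes beyond its spread. With limma 0 of the 6 probes met all 3 criteria, namely over 1.5-fold up or down, a *p* under 0.01 before adjustment and a false discovery rate under 0.2, where 0.00771% of all 38888 probes tested did. At an unadjusted *p* under 0.05 the count was 0 of 6 as well, against 4.25% of all probes. The *z*-test of the methods, with the same criteria, called 0 of the 4 genes by their brightest probe and 0.975% of all probes. Counts of 0 among so few probes are near these shares. All 6 probes overlapped between genotypes, as did all but 9.35% of probes with a value in every mouse, and their differences ran from 0.013 to 0.27. The brightest *Atp2a2* probe had the highest upper limit, 1.92-fold, and the NM_001110140 probe of the same gene ended at 1.16-fold. Two-sided exact permutation tests over the 6 mice gave *p* = 0.2 for *Pln*, 1 for *Atp2a1*, 0.9 for the brightest *Atp2a2* probe and 0.5 for *Atp2a3*, where 0.1 is the smallest value that 3 against 3 allows. On slide 2 alone, which leaves out WT 2, the differences were 0.064 for *Pln*, 0.10 for *Atp2a1*, 0.26 for *Atp2a2* and 0.20 for *Atp2a3*. The slide and the loss of this mouse cannot be told apart in these values.

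Other genes that act on the pump were read from a list of 17, which includes the micropeptides of the *Sln* and *Pln* kind, SR calcium-binding proteins and the kinases and phosphatases that act on phospholamban. Of these, 14 were tested and 0 met the criteria with limma. At an unadjusted *p* under 0.05 there were also 0, where the share of all probes was 4.25%, and the median difference was -0.041, beside -0.026 over all probes tested. Of the 14 differences 3 were positive and 11 negative. Without Grsf1cKO 3 these counts were 7 and 7, with a median difference of -0.017. *Camk2d*, a calcium/calmodulin kinase subunit, had the largest difference, 0.44, with 10.80, 10.79 and 11.41 in the Grsf1cKO mice 1 to 3 and 10.48, 10.64 and 10.57 in the WT mice 1 to 3 (limma adjusted *p* = 0.996). Without Grsf1cKO 3 the difference of *Camk2d* was 0.23. The genotypes did not overlap for *Camk2d*, as for 9.35% of all probes in either direction. *Ppp1cb*, a catalytic subunit of protein phosphatase 1, followed with -0.27. Of the 4 micropeptide genes listed, *Arln* (another-regulin) was tested and had a difference of 0.22 with overlap. It is named here because so few of this kind were measured. *Erln* was well above background in 2 mice and not tested, and *Mrln* and *Strit1* were not analysed here.

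Genes that release and store SR calcium were read from a list of 24. Of these 23 were tested and 0 met the criteria, with 0 at an unadjusted *p* under 0.05 (4.25% of all probes). The median difference was 0.011, and 0.046 without Grsf1cKO 3. *Casq2*, the calsequestrin of slow fibers and heart, had the largest difference, 0.66, belongs to the slow fiber list as well, and was highest in Grsf1cKO 3. Its genotypes overlapped, with 11.77, 12.19 and 12.87 in the Grsf1cKO mice 1 to 3 and 11.05, 11.68 and 12.13 in the WT mice 1 to 3. *Cacnb1*, the beta subunit of the muscle calcium channel, had a difference of 0.29, also with overlap. Without Grsf1cKO 3 the difference was 0.36 for *Casq2* and 0.38 for *Cacnb1*, and *Cacnb1* alone of this list then had an unadjusted *p* under 0.05, as 5.47% of all probes did. Of 13 genes for other calcium pumps and exchangers 12 were tested, 0 met the criteria and 0 had an unadjusted *p* under 0.05, beside the same 4.25%. Their differences ran from -0.20 for *Slc8b1*, the mitochondrial sodium/calcium exchanger, to 0.16, and *Slc8a2*, a plasma membrane exchanger, had -0.18. Without Grsf1cKO 3 the difference was -0.30 for *Slc8b1* and -0.19 for *Slc8a2*.

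Calcineurin and NFAT signaling reads cytosolic calcium in muscle. All 17 genes of this list were tested, 0 met the criteria and 0 had an unadjusted *p* under 0.05 (4.25% of all probes). The median difference was -0.029, and -0.016 without Grsf1cKO 3. *Myoz2*, a calcineurin-binding protein of slow fibers, had a difference of 0.32, and its value of 14.01 in Grsf1cKO 3 was the highest of the 6 mice. Without Grsf1cKO 3 its difference was 0.011. *Ppargc1a*, a coactivator of mitochondrial genes, had -0.26 without overlap, at 12.34 to 12.63 in Grsf1cKO and 12.66 to 12.85 in WT mice (limma adjusted *p* = 0.996). Without Grsf1cKO 3 it was -0.17. Such separation with Grsf1cKO lower was found for 6.27% of all probes.

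Because *Atp2a2* and *Pln* belong to slow and *Atp2a1* to fast fibers, fiber type genes were examined too. The mean of 12 slow fiber genes, relative to WT, was 0.26, 0.052 and 0.96 in the Grsf1cKO mice 1 to 3, and -0.45, 0.32 and 0.13 in the WT mice 1 to 3. Grsf1cKO 3 was thus high, and had the highest value of the 6 mice for 10 of the 12. The median difference was 0.55 and fell to 0.0087 without Grsf1cKO 3. With limma 0 genes met the criteria, and 2 of the 12 had an unadjusted *p* under 0.05, *Csrp3* at 1.24 and *Myl2* at 0.63, beside 4.25% of all probes. Without Grsf1cKO 3 their differences were 1.06 and 0.34, and *Myl2* alone was under 0.05, where 5.47% of all probes were. *Myl2* was named after its value was seen. *Tnni1*, slow troponin I, had 14.33 in Grsf1cKO 3 against 10.35 to 11.21 in the other mice, and its difference of 1.13 turned to -0.014 without Grsf1cKO 3. *Myh7*, the slow myosin heavy chain, did not share the pattern, at 9.39 in Grsf1cKO 3 and 9.27 to 11.38 in WT mice, and was also named after its values were seen. Of the 12 fast fiber genes, the brightest hold the top ranks on the arrays, where quantile normalization gives all arrays the same value. *Tnnt3*, fast troponin T, was at 19.13 in all mice but WT 1, so a change in such genes could not show here, and the list mean is not read as a measure of stability. *Tnnt3* was named after its values were seen. *Myh2* had a difference of 0.19 and *Myh4*, the fastest myosin, of -0.055, neither with an unadjusted *p* under 0.05.

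Genes of immature and denervated fibers, a setting in which *Sln* is known to be expressed, were mostly highest in Grsf1cKO 3, 11 of 14 in all. This count includes *Myh8*, which was tied at 18.80 in Grsf1cKO 3 and WT 3. Such a top rank gets the same value on all arrays from quantile normalization. *Myh8* was named after its values were seen. The mean of these 14 genes relative to WT was 0.37, 0.015 and 1.72 in the Grsf1cKO mice 1 to 3, and -0.057 to 0.070 in WT mice. *Myh3*, embryonic myosin, was 15.30 in Grsf1cKO 3 and 9.85 to 10.28 in the other 5 mice. Its difference of 1.65 turned to -0.13 without Grsf1cKO 3. *Chrng*, the fetal acetylcholine receptor subunit, was 11.36 in Grsf1cKO 3 and 5.61 to 7.15 in the others, with a difference of 1.93, or 0.27 without Grsf1cKO 3. With limma 0 of the 14 met the criteria and 2 had an unadjusted *p* under 0.05, *Chrna1* at 0.89 and *Gadd45a* at 0.62, beside 4.25% of all probes. Without Grsf1cKO 3 their differences were 0.54 and 0.70, and the genes under 0.05 were *Chrna1* and *Ankrd1*, against 5.47% of all probes. *Ankrd1* had a difference of 1.17 with all mice and of 0.49 without Grsf1cKO 3. These 3 genes were named after their values were seen. For 4 of the 14 the genotypes were separated with Grsf1cKO higher, beside 3.08% of all probes. The median difference was 0.61, and 0.14 without Grsf1cKO 3.

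The order of the mice differed between *Sln* and these genes. Grsf1cKO 2 had a *Sln* signal 1.11 above the WT mean, with list means of 0.015 for immature and denervated fibers and 0.052 for slow fibers. Grsf1cKO 1 had *Sln* 0.54 above the WT mean, with list means of 0.37 and 0.26. Among WT mice the slow fiber mean spanned -0.45 to 0.32, and WT 1, with the lowest, also had the lowest *Sln*. The part of these gene groups in the level of *Sln* or *Atp2a2* was not tested.

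**Figure D3:**
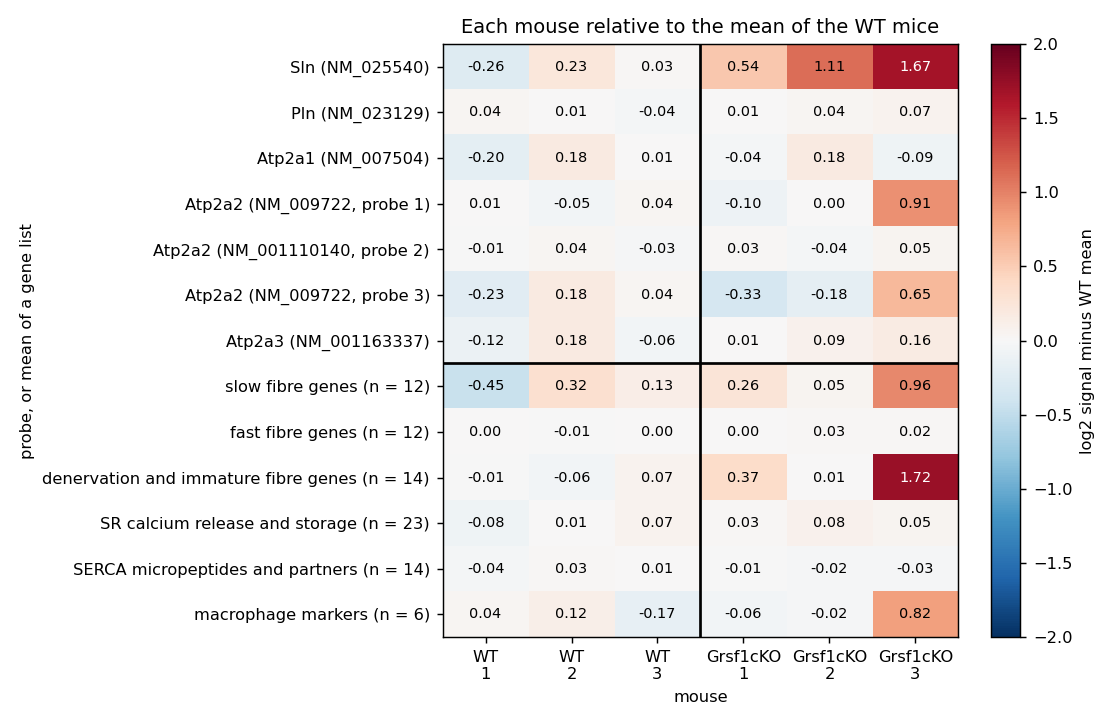
Log2 signal of each probe, and the mean over each gene list (n genes tested), in each mouse relative to the mean of the 3 WT mice. *Sln* is raised in all 3 Grsf1cKO mice (0.54, 1.11 and 1.67), whereas *Atp2a2* under NM_009722, slow fiber genes, immature fiber genes and macrophage markers are high mainly in Grsf1cKO 3.

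Markers of other cell types were compared over the mice. All 6 macrophage markers were highest in Grsf1cKO 3, where their mean was 0.82 above WT, against -0.17 to 0.12 in the other 5 mice. In Grsf1cKO 3 *Cd68*, *Ptprc*, *Adgre1* and *Csf1r* were 1.61, 1.27, 0.97 and 0.60 above the WT mean. There *Mrc1* and *Cd163* were only 0.23 and 0.24 above it, and *Cd163* was nearly level with Grsf1cKO 2, at 11.656 and 11.654. All these macrophage genes were named after their values were seen. The median difference of the macrophage markers between genotypes was 0.16, and -0.061 without Grsf1cKO 3. Fibroblast markers had a mean of 0.41 in Grsf1cKO 3 and -0.13 to 0.22 in the others. In this mouse the collagen genes *Col1a1* and *Col3a1* were 0.86 and 0.85 above the WT mean, while *Pdgfra* and *Dcn* were at -0.0077 and -0.030. The median difference of the list was 0.21, and 0.056 without Grsf1cKO 3. The 4 fibroblast genes were named after their values were seen. Of 6 cardiomyocyte markers 4 were well above background in every mouse, and the mean of the 5 tested was 0.59 in Grsf1cKO 3 and -0.29 to 0.16 in the others. This value came from *Tnnt2*, a troponin that immature skeletal muscle also expresses, at 13.33 in Grsf1cKO 3 and 10.45 to 10.98 in the others (difference 0.90, or 0.0074 without Grsf1cKO 3), and to a lesser extent from *Tnni3*, cardiac troponin I, at 7.53 in Grsf1cKO 3 and 6.61 to 7.27 in the others. *Myh6*, the atrial myosin, was lowest in Grsf1cKO 3, and *Nppa*, atrial natriuretic peptide, lay within the range of the other mice there. The median difference of the list was -0.026, and 0.0074 without Grsf1cKO 3. Adipocyte markers ranged from -0.75 in WT 3 to 0.41 in WT 1, with -0.50 in Grsf1cKO 3. The means of endothelial (-0.10 to 0.082), smooth muscle (-0.25 to 0.20) and Schwann cell markers (-0.083 to 0.16) did not have their highest value in Grsf1cKO 3. Of 45 genes tested in these 8 marker lists 0 met the criteria with limma (0.00771% of all probes), and 1 had an unadjusted *p* under 0.05 (4.25% of all probes), *Nppb* at -0.49. *Tnnt2*, *Tnni3*, *Myh6*, *Nppa* and *Nppb* were named after their values were seen. The part of these cells in the values of *Sln* and *Atp2a2* was not tested.

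The genes whose pattern over the 6 mice came nearest to that of *Sln* were found among 15834 other genes well above background on all arrays. Likeness was the root mean square difference between log2 values, each centered on the gene's mean over the mice. The nearest were *Arhgdig* (0.22), *Pcbd1* (0.23), an enzyme of pterin recycling, *Actg2* (0.24), smooth muscle gamma actin, *Cilp* (0.24), a matrix protein, and *H19* (0.26), an imprinted noncoding RNA. *H19*, for example, had 15.51, 16.24 and 17.10 in the Grsf1cKO mice 1 to 3, and 15.39, 15.90 and 15.42 in the WT mice 1 to 3. By the same measure, each by its brightest probe, *Atp2a2* ranked 275 at 0.47, *Atp2a3* 1667 at 0.59, *Pln* 3675 at 0.64 and *Atp2a1* 4773 at 0.65. All ranks include Grsf1cKO 3, where this *Atp2a2* probe was 0.91 above the WT mean. In Grsf1cKO 1 and 2 it was at -0.10 and -0.0032 relative to that mean. A gene with no variation at all would lie at 0.66 from *Sln*, so *Pln* and *Atp2a1* came close to that value. These distances describe 6 mice and were not tested.

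**Figure D4:**
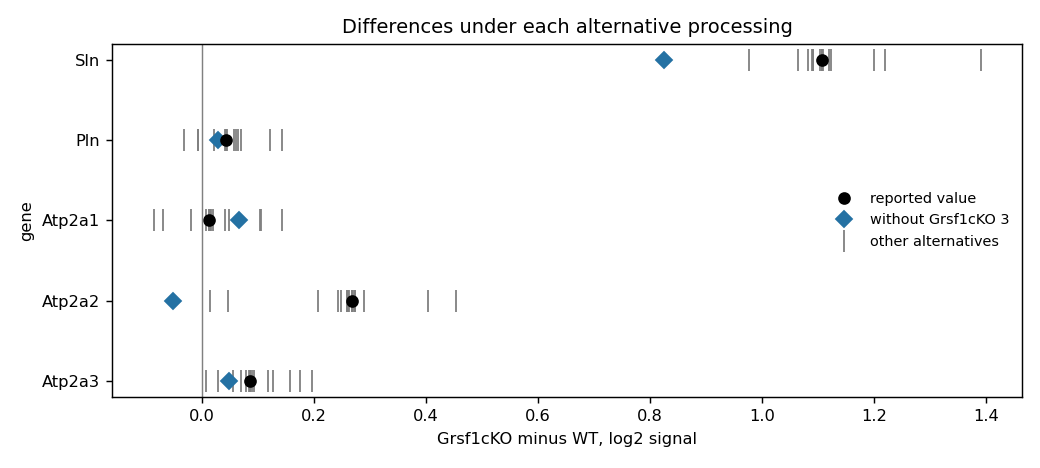
Difference in log2 signal between Grsf1cKO and WT muscle for the brightest probe of each gene, as reported (circles), without Grsf1cKO 3 (diamonds) and under every other alternative tried (ticks, including the other *Atp2a2* probes). *Sln* stays between 0.83 and 1.39, while *Pln*, *Atp2a1* and *Atp2a2* have values on both sides of 0.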

How the data were processed

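Total RNA of 6 mice was analyzed on 8 arrays. The authors deposited the spot intensities of Agilent Feature Extraction (version 12.0.3.1), not normalized between arrays, and a score per spot, a *z*-score of log2 processed signal within its array. The methods name quantile normalization and a *z*-test.

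The processed signal was used. Control spots and spots marked as outliers were left out, log2 signals were quantile normalized, and spots of a probe and arrays of a mouse were averaged. limma 3.58.1 (R 4.3.3) compared the genotypes, with no other term, for the 38888 probes that were well above background in 3 or more mice and had a value in 2 or more mice of each genotype. *p*-values were adjusted over all of these by the method of Benjamini and Hochberg. The number of mice, 3 of each genotype, limits the precision. Probes were named through RefSeq accessions of GRCm38.p6, which gave 32994 of 56605 probes a symbol. A gene of a list was represented by its brightest probe.

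Named genes were all members, *Grsf1*, the 2 genes of each pathway list with the largest absolute difference among those above background in all mice, and the 5 patterns nearest to *Sln*. The members and lists were chosen with earlier results of these data known. The labels do not say that mice of a genotype were littermates or otherwise related. Alternatives covered scaling to the 75th percentile, normexp, the deposited scores, the detection filter, arrays, slide, outlier spots, an intensity trend, the *z*-test, the replicate number and each mouse left out. The fit was also run on simulated data, and no value given here rests on that run.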

Additional observations from a re-analysis of the deposited data

How the results depend on the processing

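Over 19 alternatives the difference of *Sln* stayed between 0.83 (without Grsf1cKO 3) and 1.39 (without Grsf1cKO 1). No alternative made *Pln* or a pump gene, each read by its brightest probe, meet the criteria. The difference of *Pln* turned to -0.0061 with normexp, -0.0071 with the deposited scores (put back on the log2 scale) and -0.032 with each repeat array replacing the first, and was highest at 0.14 with scaling to the 75th percentile. That of *Atp2a1* turned to -0.020 with scaling to the 75th percentile and ran from -0.086 (without WT 1) to 0.11 (without WT 2), with 0.14 from the deposited scores. That of *Atp2a2* ran from -0.052 (without Grsf1cKO 3) to 0.45 (without Grsf1cKO 1). That of *Atp2a3* ran from 0.0071 with the deposited scores to 0.20 on slide 2 alone. For *Pln*, *Atp2a1* and *Atp2a3* the cause was not tested. Over all probes 3 met the criteria, against 379 with the *z*-test run here, 1 with the replicate block and 2 to 4 with each mouse left out. With the replicate block 0 list genes met the criteria, and *Atp2a2* had a difference of 0.27 (limma adjusted *p* = 0.888). The labels do not say that the replicate number pairs mice. Same-numbered mice deviated together with *r* of 0.23, 0.097 and 0.10 across probes, which are not independent, and other pairs with -0.19 to 0.094. Every mouse thus deviated most like its own number, with 1 of the 3 pairs under the 0.1 asked of each for a pairing. For mice 2 and 3 the lead was narrow, since WT 3 with Grsf1cKO 2 had 0.094. The deviations were taken from the mean of 3 mice, so these values depend on each other. They cannot decide whether mice were paired. The half-width of the interval was largest for 2 of the *Atp2a2* probes, which limits what 3 mice of each genotype can show.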
